A study of Mus musculus with 5 samples.

Results

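The genes of 9 cathepsins and of legumain, all encoding proteases that work mainly in the lysosome, were followed in cultured mouse marrow stromal cells that lack or carry Bmal1. The members were chosen by symbol: Ctsa, Ctsb, Ctsc, Ctsd, Ctsh, Ctsk, Ctsl, Ctss, Ctsz and Lgmn. All 10 were listed in every library, out of 14161 genes listed in any library, and all 10 were among the 3710 genes tested. The tested libraries were 3 from Bmal1-knockout cells and 2 from wild type cells. In both groups the cells were labelled bone mesenchymal stem cells, came from the femur marrow of C57BL/6 mice aged 6 to 8 weeks, grew in α-MEM with 12% FBS and were used at passages 1 to 3. Which part of Bmal1 was deleted, whether the deletion covers all tissues, and whether each library came from its own mouse are not stated in these sources. The p-values then measure only the spread between these libraries. BMAL1 is the partner of CLOCK in the transcription factor that runs the circadian clock, and the series asks which genes it regulates in these cells.

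Cathepsins and legumain are made as inactive precursors, tagged with mannose 6-phosphate and carried to lysosomes, where low pH activates them. Most of the members are cysteine proteases of the papain family (Ctsb, Ctsc, Ctsh, Ctsk, Ctsl, Ctss and Ctsz), while Ctsd encodes an aspartic protease, Ctsa a serine carboxypeptidase and Lgmn an asparaginyl endopeptidase. Ctsa, Ctsb, Ctsd, Ctsh, Ctsl, Ctsz and Lgmn are active in most cell types and are called ubiquitous here (7 genes). Ctsc, Ctsk and Ctss are most active in blood-derived cells or osteoclasts and are called phagocyte-enriched (3 genes), although fibroblasts can also make cathepsin K.

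Ctsl had the largest fall of the family with all libraries, although the log2 fold change of Ctss was slightly lower without knockout 3 (-0.98, against -0.97 for Ctsl). Its promoter is shown with those of Ctsd and Ctsa because all hold the hexamer CACGTG, the E-box that BMAL1 with CLOCK and also the lysosomal regulator TFEB can bind. The sequences are RefSeq's on GRCm38.p6 (mm10), from 250 bases before to 50 after an annotated start, 5′ to 3′ on the gene's strand, with each E-box in capitals. They lie at chr13:64370471-64370770 (minus strand), chr7:142387778-142388077 (minus strand) and chr2:164833523-164833822 (plus strand). The Ctsl and Ctsa windows lie wholly inside the annotated span of their genes, so the start used there is not the outermost one. The Ctsd window reaches beyond the outermost start of its gene.

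Ctsl: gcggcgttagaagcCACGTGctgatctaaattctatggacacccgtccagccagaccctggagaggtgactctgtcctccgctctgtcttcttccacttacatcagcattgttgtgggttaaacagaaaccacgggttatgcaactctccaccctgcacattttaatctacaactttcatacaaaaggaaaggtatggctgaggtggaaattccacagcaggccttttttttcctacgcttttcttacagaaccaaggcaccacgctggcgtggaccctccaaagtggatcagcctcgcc

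Ctsd: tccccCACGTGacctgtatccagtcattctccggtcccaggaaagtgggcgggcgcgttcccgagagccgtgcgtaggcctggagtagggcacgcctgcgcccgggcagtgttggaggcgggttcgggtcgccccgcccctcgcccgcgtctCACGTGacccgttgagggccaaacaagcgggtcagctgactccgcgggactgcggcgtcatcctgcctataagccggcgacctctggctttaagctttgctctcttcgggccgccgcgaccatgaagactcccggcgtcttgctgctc

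Ctsa: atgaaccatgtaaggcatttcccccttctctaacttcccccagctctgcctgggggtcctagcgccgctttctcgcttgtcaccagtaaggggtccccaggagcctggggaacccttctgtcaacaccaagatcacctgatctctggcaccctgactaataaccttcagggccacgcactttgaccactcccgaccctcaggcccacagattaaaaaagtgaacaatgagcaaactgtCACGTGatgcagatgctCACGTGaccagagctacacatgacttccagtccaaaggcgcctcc

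The table held 10 promoter windows for 8 members, with none for Ctsb and Ctsh. On both strands the letters CACGTG were in a window of Ctsa, Ctsd, Ctsl and Lgmn, so in 4 of 10 member windows, against 7.15% of all 32851 windows. The longer TCACGTGA, which contains the same hexamer and the core of the CLEAR element of lysosomal genes, was in windows of Ctsa and Ctsd, against 0.974% of all windows. In Ctsa it began at bases -13 and 4 relative to the start used, and in Ctsd at base -99. The Lgmn window with CACGTG also lies inside the annotated span of its gene. The purine box GAGGAAGT, a form of the site of the myeloid factor PU.1, was in windows of Ctsc and Ctss, both classed as phagocyte-enriched, against 3.2% of all windows. Ctsk, of the same class, had no match. A match describes these letters only, and no binding was measured.

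The knockout libraries held 226695, 237088 and 281990 expected counts (estimated reads per gene) and the wild type libraries 243072 and 211623, so a count of 0 in a library allows up to 12.1 to 15.9 CPM (3 counts; counting error only). CPM, edgeR's counts scaled to a common library size, follow TMM scaling over the tested genes. Arntl, the symbol of Bmal1, had 4, 1 and 2 counts in knockout cells, against 5 and 0 in wild type cells, so it does not check the labels. The label of mesenchymal stem cells was set against markers. Of 15 stromal markers all were listed and 10 tested, and Col3a1, a fibrillar collagen chain, averaged 4882 ± 218 CPM in knockout cells, against 1874 ± 92.8 CPM in wild type cells. The stem cell markers Thy1, Lepr, Eng and Nt5e and the proteoglycan gene Lum were too low to test. Of 20 macrophage markers 18 could be tested. Lyz2, the lysozyme of macrophages, averaged 6789 ± 282 CPM in knockout cells, against 10767 ± 261 CPM in wild type cells. Both groups thus held stromal and macrophage transcripts.

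Every one of the 10 protease genes had a lower mean in the Bmal1-knockout libraries, and 6 passed the test: Ctsl, Ctss, Ctsb, Ctsd, Ctsa and Lgmn. None was higher past the test, and Ctsc, Ctsh, Ctsk and Ctsz did not pass. Among all genes tested, 302 (8.14%) were lower at an adjusted p under 0.05 and 304 (8.19%) were higher (edgeR quasi-likelihood test, Benjamini-Hochberg adjustment over the 3710 genes). The share called depends on the level. Of the 496 genes with a mean of at least 300 CPM, 21.4% were lower, and 8 members were among them, 6 of these lower. Of the 159 genes with at least 1000 CPM, 24.5% were lower, and the 4 members at that level all were. The median log2 fold change was -0.54 over the 10 members and 0.01 over all tested genes. In 9 of 10 members the groups did not overlap, against 21.6% of all tested genes that were lower without overlap. That share covers genes of every level and was not taken for genes as abundant as the members.

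Ctsl (Entrez gene 13039, chromosome 13, 64361890 to 64370772), the gene of a potent lysosomal endopeptidase that also trims the invariant chain in some cells, had 238, 211 and 245 counts in knockout cells, against 470 and 376 counts in wild type cells. This made 1143, 1003 and 991 CPM in knockout cells, against 2208 and 1998 CPM in wild type cells. All knockout libraries lay well below both wild type libraries. Its log2 fold change was -1.01 (SE 0.12, edgeR adjusted p = 7.2e-16), a level 50.4% lower in the knockout, with a 95% interval of 41.8% to 57.7%. In GENCODE M21 its exons share 1742 bases with Gm47123 on the other strand.

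Ctss (Entrez gene 13040, chromosome 3, 95526786 to 95556405), the protease with which antigen-presenting cells cut the invariant chain of MHC class II, had 132, 137 and 197 counts in knockout cells, against 270 and 237 counts in wild type cells. It stood at 634, 651 and 797 CPM in knockout cells, against 1268 and 1260 CPM in wild type cells. Knockout 3 was the highest of its group and still far from the wild type. The log2 fold change was -0.86 (SE 0.13, edgeR adjusted p = 3.0e-09), a level 44.8% lower.

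Ctsb (Entrez gene 13030, chromosome 14, 63122462 to 63145923), an abundant cysteine protease of lysosomes, was at 2239, 2149 and 1829 CPM in knockout cells, against 3073 and 3030 CPM in wild type cells. The groups were apart and the wild type pair lay close together. Its log2 fold change was -0.56 (SE 0.11, edgeR adjusted p = 4.2e-06). Exons of Ctsb share 774 bases with Fdft1 on the other strand, an enzyme of cholesterol synthesis at 2868, 3047 and 3302 CPM in knockout cells, against 3740 and 3497 CPM in wild type cells. Fdft1 did not pass (log2 fold change -0.24, edgeR adjusted p = 0.105). The strand setting of the counting is not stated in any source used here. Reads of the shared bases cannot be told apart.

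Ctsd (Entrez gene 13033, chromosome 7, 142375910 to 142387827), the main aspartic protease of lysosomes, had 494, 436 and 531 counts in knockout cells, against 643 and 586 counts in wild type cells. Scaled, these were 2373, 2073 and 2149 CPM in knockout cells, against 3021 and 3115 CPM in wild type cells. In GENCODE M21 Ctsd shares 808 exon bases with Gm49369 on the same strand. The groups did not overlap, and the log2 fold change was -0.48 (SE 0.11, edgeR adjusted p = 0.00013). Without wild type 2 the call was lost (-0.46, edgeR adjusted p = 0.0583).

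Ctsa (Entrez gene 19025, chromosome 2, 164832872 to 164841032), which encodes the carboxypeptidase that shields neuraminidase 1 and β-galactosidase in a lysosomal complex, was at 1638, 1859 and 1902 CPM in knockout cells, against 2518 and 2471 CPM in wild type cells. Its log2 fold change was -0.47 (SE 0.11, edgeR adjusted p = 0.00034), and without wild type 1 it no longer passed (-0.47, edgeR adjusted p = 0.0536). Its partners did not pass: Neu1, the neuraminidase, had 10, 8 and 8 counts in knockout cells, against 14 and 7 counts in wild type cells, and Glb1, the galactosidase, had 10, 7 and 13 counts in knockout cells, against 9 and 4 counts in wild type cells. Up to 495 exon bases of Ctsa lie opposite Pltp or Neurl2.

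Lgmn (Entrez gene 19141, chromosome 12, 102394082 to 102439728), whose product activates other cathepsins by cutting after asparagine, had 44, 68 and 65 counts in knockout cells, against 96 and 61 counts in wild type cells. The groups were separate in CPM only narrowly, with 211, 323 and 263 CPM in knockout cells, against 451 and 324 CPM in wild type cells. The log2 fold change was -0.55 (SE 0.20, edgeR adjusted p = 0.036). This call was the least steady of the 6, lost without knockout 1 (-0.41), without knockout 3 (-0.54) and without wild type 1 (-0.30, edgeR adjusted p = 0.587). With DESeq2 it did not pass either (-0.55, adjusted p = 0.203).

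**Figure D1:**
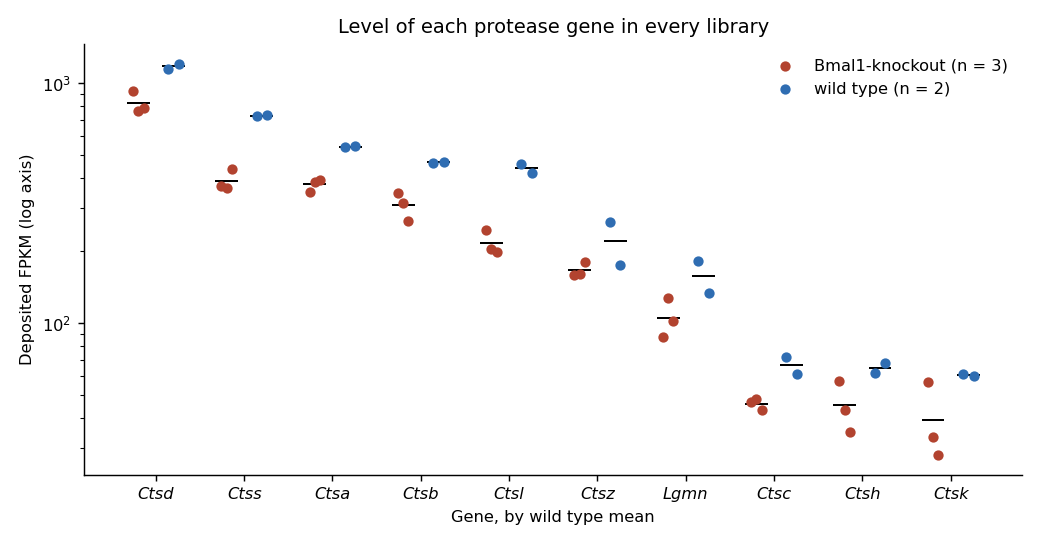
Deposited FPKM (fragments scaled by gene length and library size, log axis) of each gene in each of the 3 Bmal1-knockout and 2 wild type libraries, with points for libraries and lines for group means. The genes run from Ctsd, with means of 823 FPKM in knockout and 1174 FPKM in wild type, to Ctsk, with means of 39.6 FPKM and 60.7 FPKM in the same order of groups.

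Of the members that did not pass, Ctsz (Entrez gene 64138, chromosome 2, 174427494 to 174439039), a carboxypeptidase of lysosomes, was the one whose groups overlapped. It had 61, 65 and 87 counts in knockout cells, against 106 and 61 counts in wild type cells, so wild type 1 alone stood above the rest. Its log2 fold change was -0.38 (edgeR adjusted p = 0.163), and it was -0.04 without wild type 1 and -0.65 without wild type 2.

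Ctsc (Entrez gene 13032, chromosome 7, 88278024 to 88315861), the dipeptidyl peptidase that activates the serine proteases of leukocyte granules, was at 423, 428 and 401 CPM in knockout cells, against 564 and 526 CPM in wild type cells. The groups were apart, yet the log2 fold change of -0.39 (SE 0.16) did not pass (edgeR adjusted p = 0.089). Of the granule proteases it serves, Gzmb had 2, 0 and 1 counts in knockout cells, against 10 and 13 counts in wild type cells, too few for the test, and Prtn3, Cma1 and Gzma never exceeded 2 counts in a library.

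Ctsk (Entrez gene 13038, chromosome 3, 95499210 to 95509387), the collagen-cutting protease of osteoclasts and the neighbour of Ctss on chromosome 3, had 24, 15 and 15 counts in knockout cells, against 27 and 23 counts in wild type cells. Knockout 1 lay near the wild type pair. The log2 fold change was -0.61 (SE 0.34, edgeR adjusted p = 0.225), with a 95% interval of -1.27 to 0.05, and was -0.91 without knockout 1, where it did not pass either. Ctsh (Entrez gene 13036, chromosome 9, 90054267 to 90076095), an aminopeptidase, had 25, 20 and 18 counts in knockout cells, against 28 and 27 counts in wild type cells. Its log2 fold change was -0.53 (SE 0.32, edgeR adjusted p = 0.278), with a 95% interval of -1.15 to 0.10. For both genes the interval covers no change as well as a fall as large as that of Ctsl.

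**Figure D2:**
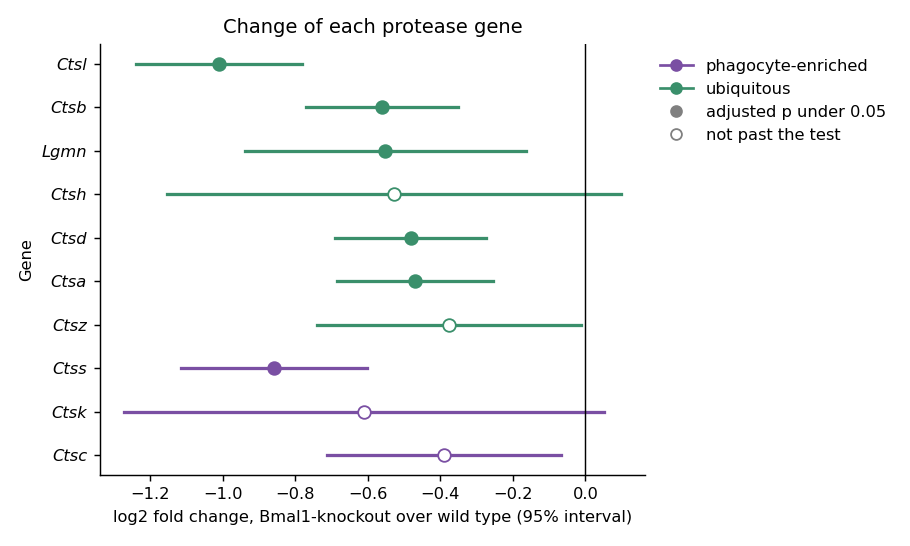
Log2 fold change of Bmal1-knockout over wild type for each gene with its 95% interval (edgeR); filled points passed an adjusted p under 0.05, and colours give the class. All 10 points lie below 0, and 6 are filled, 5 of the ubiquitous and 1 of the phagocyte-enriched genes.

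The contrast between the ubiquitous and the phagocyte-enriched genes was small beside the spread within each class. Of the 7 ubiquitous genes, 5 were lower and 2 did not pass, with a median log2 fold change of -0.53 and a range of -1.01 (Ctsl) to -0.38 (Ctsz). Of the 3 phagocyte-enriched genes 1 was lower and 2 did not pass, with a median of -0.61 and a range of -0.86 (Ctss) to -0.39 (Ctsc). With Ctsh and Lgmn counted as phagocyte-enriched the medians were -0.55 for that class and -0.48 for the ubiquitous genes. The order of the class medians turned without knockout 3, at -0.42 for the phagocyte-enriched and -0.48 for the ubiquitous genes. It also turned with the replicate number as a block, at -0.42 and -0.48 in the same order of classes. Without knockout 2 both medians were -0.52. The 2 classes share the libraries, and the difference between their medians was not tested.

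Per length, the family summed to 2641, 2447 and 2463 FPKM in knockout cells, against 3972 and 3868 FPKM in wild type cells. The phagocyte-enriched genes held 18.0%, 18.2% and 20.7% of this sum in knockout cells, against 21.6% and 22.1% in wild type cells. These shares did not overlap, and most of the class was Ctss, which alone held 14.1%, 14.8% and 17.8% in knockout cells, against 18.3% and 19.0% in wild type cells. The share of Ctsl was 9.19%, 8.28% and 8.01% in knockout cells, against 11.5% and 10.9% in wild type cells. Ctsd, the largest component, held 34.9%, 31.3% and 31.7% in knockout cells, against 28.8% and 31.1% in wild type cells. Ctsl and Ctss thus made up less of the family in every knockout library, and Ctsd more, though knockout 2 and wild type 2 were nearly level for Ctsd. A share rises when others fall, and the level of Ctsd itself was lower in the knockout.

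**Figure D3:**
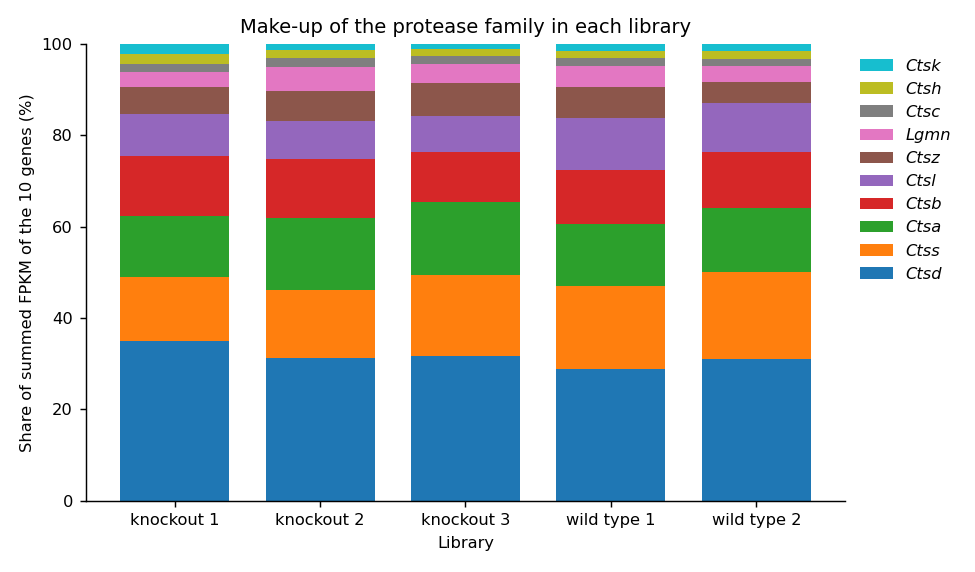
Share of the summed FPKM of the 10 genes held by each gene, in percent, in 3 knockout and 2 wild type libraries. Ctsd forms the largest block in all 5 libraries, and the Ctsl block is narrower in the knockout libraries (8.01% to 9.19%) than in wild type cells (10.9% and 11.5%).

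The order of the levels was the same in both groups by mean FPKM: Ctsd, Ctss, Ctsa, Ctsb, Ctsl, Ctsz, Lgmn, Ctsc, Ctsh and Ctsk. In the knockout libraries the ranges of Ctss and Ctsa met, at means of 391 ± 40.7 and 377 ± 23.1 FPKM (SD, n = 3), as did those of Ctsc, Ctsh and Ctsk between 28.1 and 57.5 FPKM. In the wild type libraries Ctss (730 ± 5.31 FPKM, SD, n = 2) stood clear above Ctsa (543 ± 6.65 FPKM, SD, n = 2). Ctsz and Lgmn met in the wild type, and so did Ctsc and Ctsh. The deposited length of Ctsc ran from 5587 to 6638 bases between libraries. That of Ctsa ran from 3350 to 3480 bases and that of Ctsh from 1524 to 1630 bases. The FPKM of these genes thus moves with the estimated mix of their transcripts as well as with their counts. The rows of Ctsa, Ctsd and Ctsz also pool RefSeq transcripts with others that are not in RefSeq.

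The 95% interval of the log2 fold change of Ctsl, -1.24 to -0.78, did not meet those of Ctsa (-0.68 to -0.25), Ctsd (-0.69 to -0.27) or Ctsb (-0.77 to -0.35). It met those of Ctss (-1.11 to -0.60) and Lgmn (-0.94 to -0.17). The ratio of Ctsl to Ctsb in FPKM was 0.699, 0.639 and 0.742 in knockout cells, against 0.984 and 0.903 in wild type cells, without overlap. An exact permutation test of this ratio gave p = 0.2 (two-sided), the smallest this test can give with 3 against 2 libraries, so it could not have passed whatever the values.

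Markers of macrophages moved with the proteases. All 20 macrophage markers were listed, and 7 of the 18 tested were lower, none higher, with a median log2 fold change of -0.52. Single markers ran from -1.18 (Cd14) to 0.18 (Mrc1), a range that takes in the -1.01 of Ctsl through Cd14 alone. The next largest fall was that of Fcgr1 (-0.88), which did not pass. Besides Lyz2 (-0.67), the most abundant was Adgre1, the surface protein F4/80 (-0.44, edgeR adjusted p = 0.0174). Their summed level was 9950 to 11237 CPM in knockout cells, against 15826 to 16106 CPM in wild type cells. The 10 protease genes summed to 8817 to 9191 CPM in knockout cells, against 13314 to 13859 CPM in wild type cells. Knockout over wild type was 0.662 for the proteases and 0.655 for the markers. Without Lyz2, left out after the values were seen, it was 0.707 for the markers. The sum of the 15 stromal markers was higher, at 12847 to 13822 CPM in knockout cells, against 5033 to 5046 CPM in wild type cells. It came mostly from Col3a1 (log2 fold change 1.38), Col1a2 (1.51), Sparc, Col1a1 (1.63) and Cxcl12 (1.31), the 5 that were higher past the test. The other 5 tested did not pass, with Dcn at 1.01, Vcam1 at 0.82, Pdgfrb at 0.15, Ly6a at -0.22 and Pdgfra at -0.34. In bulk RNA, fewer macrophages and less of these transcripts per cell cannot be told apart.

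Set against the macrophage markers, the family as a whole showed no gap between the groups. It stood at 81.8, 90.1 and 86.4 CPM per 100 CPM of markers in knockout cells, against 86.1 and 84.1 in wild type cells. Among the members Ctsl had the widest gap below this marker sum, at 10.2, 10.1 and 9.71 CPM per 100 CPM of markers in knockout cells, against 13.7 and 12.6 in wild type cells. Ctss was lower as well, at 5.64, 6.55 and 7.81 in knockout cells, against 7.88 and 7.96 in wild type cells, though knockout 3 came close to the wild type. Ctsd and Ctsc were slightly higher by this measure, Ctsd at 21.1, 20.8 and 21.1 in knockout cells, against 18.8 and 19.7 in wild type cells. Ctsa, Ctsb, Ctsh, Ctsk, Ctsz and Lgmn overlapped between the groups. Lyz2 makes up much of the marker sum. Without it the family stood at 222, 262 and 255 CPM per 100 CPM of markers in knockout cells, against 269 and 254 in wild type cells. By the same measure Ctsl was at 27.6, 29.3 and 28.6 in knockout cells, against 42.8 and 38.1 in wild type cells. Ctss stayed apart too, at 15.3, 19.1 and 23.0 in knockout cells, against 24.6 and 24.0 in wild type cells. Without Lyz2, a choice made after the values were seen, Ctsd and Ctsc overlapped between the groups, Ctsd at 57.2, 60.6 and 62.1 in knockout cells, against 58.6 and 59.4 in wild type cells. These ratios are values without a test, and the part of macrophage content in the falls was not tested.

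**Figure D4:**
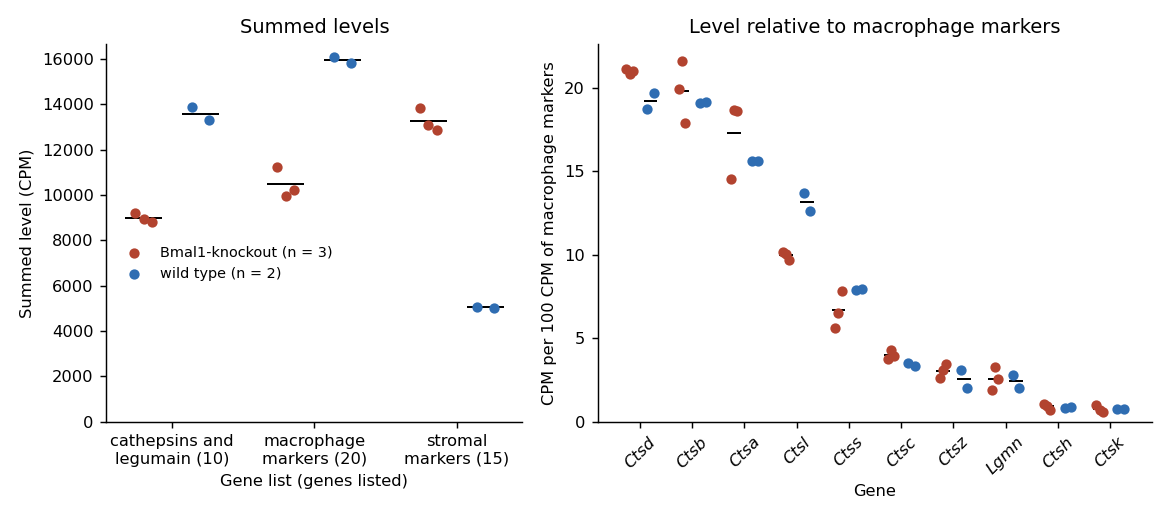
Left, summed CPM of the 10 protease genes, 20 macrophage markers and 15 stromal markers in each library; right, CPM of each protease gene per 100 CPM of the macrophage markers, with lines at group means. Proteases and macrophage markers are both lower in the knockout libraries, and on the right Ctsl has the widest gap below the wild type (9.71 to 10.2 against 12.6 and 13.7).

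Marker lists of other cell types summed to lower levels than those of macrophages and stroma. Of 11 osteoclast markers 8 were listed, with Calcr, Dcstamp and Ocstamp at 0 in every library, and the list summed to 428 to 518 CPM in knockout cells, against 855 to 877 CPM in wild type cells. Its 2 tested members were lower: Acp5, an acid phosphatase that macrophages also make (log2 fold change -1.35, edgeR adjusted p = 7.9e-05), and Mmp9, a gelatinase (-0.66, edgeR adjusted p = 0.0028). Ctsk, at 54 counts in the 3 knockout libraries and 50 in the 2 wild type libraries, did not pass. Of 10 dendritic cell markers 7 were listed, with Itgax, Flt3 and H2-Eb1 at 0, and the list summed to 1085 to 1356 CPM in knockout cells, against 1773 to 2093 CPM in wild type cells. Of its 3 tested members Zbtb46, a transcription factor that holds most of this sum, was lower (-0.70, edgeR adjusted p = 1.5e-07), while the receptors Xcr1 (0.13) and Clec9a (-0.39) did not pass. Cd74, the invariant chain that cathepsin S cuts, had 3, 4 and 0 counts in knockout cells, against 1 and 1 counts in wild type cells. Neutrophil markers summed to 43.4 to 70.4 CPM in knockout cells, against 98.7 to 101 CPM in wild type cells, lymphoid markers to 42.8 to 52.8 CPM and 42.5 to 47.0 CPM in the same order of groups. Mmp8, the neutrophil collagenase, did not pass (-1.12, edgeR adjusted p = 0.145). Of 6 endothelial markers 2 were tested, Pecam1 (-0.37) and Emcn (0.01), and neither passed, and of 8 erythroid markers 1 was listed, with 1 count at most in a library.

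Genes that control or accompany these proteases were followed as well. Of 69 such genes, 51 were listed and 20 tested; 2 were higher, 5 lower and 13 did not pass, with a median log2 fold change of -0.10. Of 14 further cathepsin genes 5 were listed, and Ctsw was the 1 tested. Its row stood at 422 ± 25.4 CPM in knockout cells, against 422 ± 33.7 CPM in wild type cells (log2 fold change 0.00, edgeR adjusted p = 0.998). That row also holds a transcript that is not in RefSeq, so its level is not taken as that of the annotated transcript. Ctsf had 3, 7 and 8 counts in knockout cells, against 4 and 6 counts in wild type cells. Ctso had 4, 2 and 6 counts in knockout cells, against 9 and 7 counts in wild type cells. Both had too few for the test, and Ctse and Ctsg never exceeded 3 counts.

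Among the inhibitors, 11 of 19 were listed, 4 tested and 1 was lower. Cstb, the cytosolic cystatin B, had 22, 17 and 13 counts in knockout cells, against 32 and 27 counts in wild type cells (log2 fold change -0.90, edgeR adjusted p = 0.0395), a call lost without knockout 2, knockout 3 or either wild type library (-0.94 to -0.66). Cst3, the secreted cystatin C that blocks cysteine cathepsins, averaged 205 ± 29.2 CPM in knockout cells, against 206 ± 27.9 CPM in wild type cells and did not pass (log2 fold change -0.01, SE 0.25). Serpinb6a and Ctla2a did not pass either (-0.05 and -0.15). The summed inhibitors stood at 643 to 735 CPM in knockout cells, against 770 to 834 CPM in wild type cells.

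Of the 12 sorting genes, all were listed, 5 tested and 1 was lower. M6pr, the small receptor that carries mannose 6-phosphate tagged enzymes to lysosomes, had 44, 43 and 35 counts in knockout cells, against 66 and 52 counts in wild type cells (log2 fold change -0.67, edgeR adjusted p = 0.029). That call was lost without knockout 2, knockout 3 or either wild type library (-0.76 to -0.50). Igf2r, the large receptor of the same cargo, was at 0.10 and Lrp1, a receptor that takes up secreted cathepsin D, at 0.21, and neither passed, nor did Scarb2, a lysosomal membrane protein (-0.41).

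Among partners and substrates, 7 of 13 were tested, 2 were lower and 2 higher. Psap, whose product is cut into the saposins with the help of cathepsin D, averaged 1330 ± 237 CPM in knockout cells, against 2300 ± 156 CPM in wild type cells (log2 fold change -0.79, SE 0.11, edgeR adjusted p = 1.4e-10). Grn, progranulin, which lysosomal proteases cut into granulins, was at -0.59 (edgeR adjusted p = 0.0043). It did not pass without wild type 2 (-0.44) or with DESeq2 (-0.60, DESeq2 adjusted p = 0.0547). With limma on log2 of FPKM plus 1 or 0.1 (both -0.62) it did not pass either. Col1a1 and Col1a2, chains of the type I collagen that cathepsin K can digest, were higher, at 1.63 and 1.51. Ifi30, a lysosomal thiol reductase, did not pass (-0.36).

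Of 11 lysosome regulators and membrane proteins 3 were tested. Lamp1, a main protein of the lysosomal membrane, was lower (-0.43, edgeR adjusted p = 0.0179), a call lost without knockout 2, knockout 3 or either wild type library (-0.51 to -0.36). Lamp2, its relative, averaged 410 ± 18.0 CPM in knockout cells, against 324 ± 7.05 CPM in wild type cells and did not pass (0.34, edgeR adjusted p = 0.223), nor did Rragc, a GTPase of nutrient sensing (-0.72). Tfeb, the lysosomal master regulator, had 2, 3 and 2 counts in knockout cells, against 1 and 2 counts in wild type cells. Its relative Tfe3 had 8, 7 and 7 counts in knockout cells, against 3 and 10 counts in wild type cells. Both had too few for the test.

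Of 363 tested genes with CACGTG in a window, 6.61% were lower, against 7.95% of the 2554 with a window and no E-box. Among the members, the 4 with an E-box (Ctsa, Ctsd, Ctsl and Lgmn) were all lower past the test, and of the 4 without it (Ctsc, Ctsk, Ctss and Ctsz) Ctss was. Ctsa, Ctsd and Ctsl also had more counts than Ctsc, Ctsk and Ctsz in every library. Lgmn, which has an E-box, had fewer counts than Ctsc in every library, and Ctss, which has none, had more. No test was made over so few genes.

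**Figure D5:**
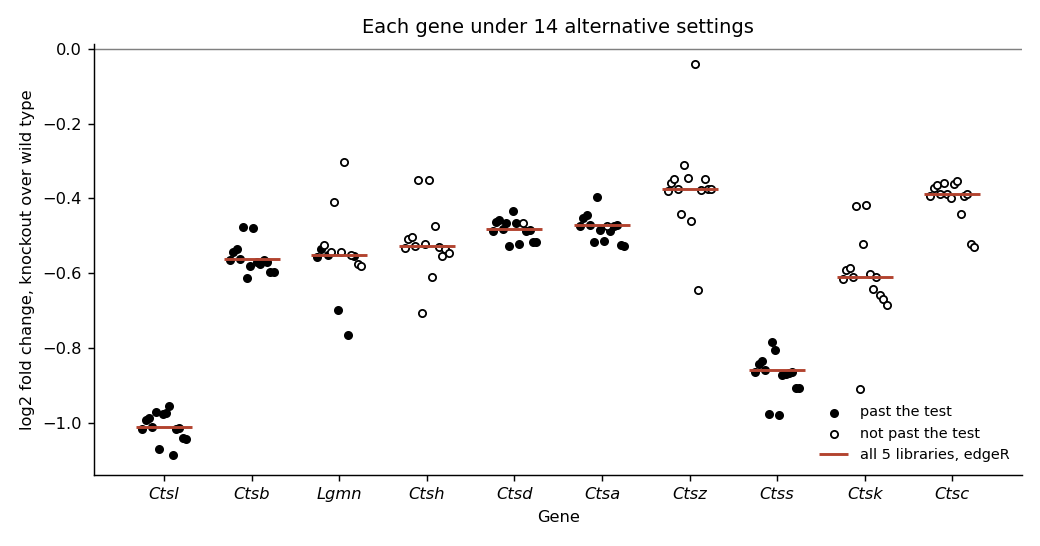
Log2 fold change of knockout over wild type for each gene under 14 alternative settings (points, filled where past the test) and with edgeR on all 5 libraries (red line). Ctsl, Ctss and Ctsb are filled throughout, Lgmn changes between filled and open, and no point lies above 0.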

How the data were processed

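RNA of 3 Bmal1-knockout and 2 wild type cultures was sequenced on Illumina instruments, per the labels. For each library the authors deposited the expected count, FPKM and length of every gene, per the file headers. The submitters' processing notes name HISAT2, StringTie, Bowtie2, RSEM and mm10, without versions or roles. An absent gene was taken as 0. Of the deposited counts 93.8% to 94.2% were whole within 0.005, among them all counts of the members, and the rest were rounded.

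The whole table was fitted with edgeR 4.0.16 (R 4.3.3) after filterByExpr, which kept genes by a minimum count of 10 and a minimum total of 15. Scaling was by TMM, the quasi-likelihood fit was robust, and p-values were adjusted by Benjamini-Hochberg with a threshold of 0.05. Standard errors and 95% intervals came from the F statistic. The code was tested on simulated counts whose spread was not fitted to these data, which checks the code alone. Alternatives were RLE or no scaling, no filter, a fit that is not robust, DESeq2 1.42.0, limma 3.58.1 (voom, or log2 of the deposited FPKM plus 1 or 0.1), the replicate number as a block, and each library left out.

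Members and lists were chosen with earlier results of these data known. The named genes were all members, related genes past the test, the 3 most abundant others of each related list, and the 2 most abundant tested markers of each list. Others, such as Cd74, Gzmb, Tfeb, Fdft1, Pltp and low markers, were picked after their values were seen. Positions and promoters are from RefSeq GRCm38.p6.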

Additional observations from a re-analysis of the deposited data

How the results depend on the processing

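All 10 members kept a negative log2 fold change under all 14 alternative settings. Ctsl, Ctss and Ctsb passed in all 14, Ctsa and Ctsd in 13 each and Lgmn in 6; Ctsc, Ctsh, Ctsk and Ctsz passed in none. The number of members past the test was 4 to 6, and with each library left out 4 to 6, with 3 to 5 ubiquitous genes. The count of genes called was 606 in all, against 280 with DESeq2 (131 lower), 342 with limma on log2(FPKM + 1) (171 lower) and 314 on log2(FPKM + 0.1) (157 lower). With a library left out the count was 298 to 610 (146 to 287 lower), lowest without a wild type library. Of the 7 related genes called, 3 were called with DESeq2 and with limma on FPKM at either added constant, 4 with the replicate block and 3 to 7 with a library left out. The ubiquitous median of -0.53 was -0.48 with the replicate block, -0.58 to -0.48 with a library left out and -0.48 with Ctsh and Lgmn moved, and the phagocyte-enriched median of -0.61 was -0.42 with the block and -0.78 to -0.42 with a library left out; the cause of these shifts was not tested. Same-numbered libraries did not deviate together (correlations of -0.01 and 0.03 over 3710 genes), so the numbers are not taken as pairs; the replicate block gave 441 genes called and 5 members, without Lgmn, and put Ctss (-0.98) just below Ctsl (-0.97). Low counts limit Ctsh and Ctsk, with 15 to 28 counts in each library.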

Other observations

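Ctsw, a cathepsin known from T and natural killer cells, was listed with 75 to 111 counts in every library, while the lymphoid marker list summed to 42.8 to 52.8 CPM in the knockout and 42.5 to 47.0 CPM in the wild type libraries. Its deposited length was 5529 bases in all 5 libraries, against 1887 exon bases in GENCODE M21, and its row pools a RefSeq transcript with a transcript that is not in RefSeq. A length above the annotated exon bases in every library means that the row did not count the annotated transcript alone. The level printed for Ctsw is therefore that of the pooled row and is not taken as that of its annotated transcript.

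Zbtb46, a transcription factor named as a dendritic cell marker, was at 980, 1117 and 1214 CPM in the knockout and 1973 and 1610 CPM in the wild type libraries (log2 fold change -0.70, edgeR adjusted p = 1.5e-07). In the same list Xcr1 averaged 77.2 ± 23.6 CPM in the knockout and 70.2 ± 13.5 CPM in the wild type libraries. H2-Ab1 had 9 counts over the 3 knockout libraries and 8 counts over the 2 wild type libraries. The row of Zbtb46 also pools transcripts that are not in RefSeq.

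Pltp, the phospholipid transfer protein gene that lies opposite Ctsa, was at 62.5, 47.5 and 64.7 CPM in the knockout and 164 and 159 CPM in the wild type libraries (log2 fold change -1.46, edgeR adjusted p = 0.00031).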
